A study of Mus musculus with 9 samples.

Results

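The insulin-like growth factor (IGF) system was followed across cells sorted from the embryonic mouse knee. Its 10 genes were Igf1, which encodes a ligand, Igf1r, which encodes the signalling receptor, Igfbp2, Igfbp3, Igfbp4, Igfbp5, Igfbp6 and Igfbp7, which encode binding proteins, and Pappa and Pappa2, which encode the pappalysin proteases. They were picked by symbol, and all 10 of 10 were found among the 54532 genes of the deposited table. IGF ligands bind the receptor on the cell surface and drive growth and survival, and in the growing skeleton they are known for promoting chondrocyte proliferation and enlargement. Most IGF in tissue is held by binding proteins, which keep it from the receptor or carry it to the cell. Pappalysins cut particular binding proteins and so release the ligand, and stanniocalcins inhibit the pappalysins.

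Knees of E14.5 mouse embryos were dissected and dissociated with collagenase, and the cells were sorted by 2 reporters into 3 populations. Double-positive cells carried both fluorescent signals, RFP-only cells carried the tdTomato signal of Creb5 alone, and GFP-only cells carried the EGFP signal of Sox9 alone. All 3 populations came from embryos of 1 genotype, Creb5 3XHA-P2A-tdTomato/+; Sox9 iresEGFP/+, so every library carries both reporter alleles and none is a reporter-free control. Poly(A) RNA was sequenced in bulk from each population in 3 litters, which the labels number 1, 2 and 5, so each of the 9 libraries is 1 litter and 1 population. The deposited values are named as leaving out the litters numbered between 2 and 5. The number of embryos behind a library was not given in the sources used here.

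The libraries held 25199258 to 47079305 reads assigned to genes. Sox9 averaged 23473 ± 6622 normalized counts in double-positive, 1618 ± 457 in RFP-only and 28910.0 ± 8025 in GFP-only libraries (SD, n = 3 each), and Creb5 averaged 3044 ± 333 in double-positive, 2959.8 ± 832 in RFP-only and 203 ± 68.1 in GFP-only libraries, which matches the sort. Summed counts of 15 cartilage markers ranged from 451335 to 1194911 in double-positive, from 11136 to 21999.8 in RFP-only and from 1922269 to 2608211 in GFP-only libraries. Of 9 prehypertrophic and osteoblast markers, 8 were called lower in double-positive relative to GFP-only cells and 9 in RFP-only relative to GFP-only cells. Blood and immune markers were called higher in 7 of 11 and 4 of 11 cases in the same comparisons. Of 9 pericyte and smooth muscle markers, 8 were called higher and 1 lower in RFP-only relative to GFP-only cells. Their summed counts overlapped, at 13290 to 18590 in RFP-only and 15023 to 17998 in GFP-only libraries. The part of these lists in the IGF differences was not tested. Skeletal muscle was present as well, with sums over 12 genes of 1097 to 3399 in double-positive, 9072 to 33523 in RFP-only and 872 to 2278 in GFP-only libraries. The GFP-only library of litter 5 stood apart from its replicates (Pearson r across genes of at most 0.915 with them, against 0.946 between the other GFP-only libraries), and values without it are given where they end a call, make one or move widely.

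Values are normalized counts, that is, reads scaled for library depth by the authors. A gene was called different where limma, fitted to log2(normalized count + 1) over 17764 genes and all 9 libraries, gave a Benjamini-Hochberg adjusted p under 0.05, and all 10 IGF genes passed the filter on low values. Fold changes are log2 ± SE on that scale. The 3 comparisons share libraries, so their results are not independent of each other.

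Relative to GFP-only cells, both Creb5-reporter populations were called higher in the ligand gene Igf1, the binding protein gene Igfbp2 and the protease gene Pappa, and Igfbp3, Igfbp4, Igfbp5 and Igfbp6 were called higher in 1 of the 2 comparisons each. Of the 10 genes, 4 were called higher in double-positive relative to GFP-only cells (Igf1, Igfbp2, Igfbp5 and Pappa) and none lower, where 8.29% of all tested genes were called, 5.27% higher and 3.02% lower. In RFP-only versus GFP-only cells 7 were called higher (Igf1, Igfbp2, Igfbp3, Igfbp4, Igfbp6, Pappa and Pappa2) and none lower, where 20.3% of all genes were called, 11.8% higher and 8.48% lower. Between double-positive and RFP-only cells none of the 10 genes was called (6 at an unadjusted p under 0.05, 0 by edgeR and 5 by DESeq2), where 2.85% of all genes were called, 1.8% higher and 1.05% lower. Leaving out 1 library at a time gave 0 to 2 calls there, with 2 when litter 2 of the double-positive set or any 1 GFP-only library was dropped. In a fit with litter as a block, 4 were called between double-positive and RFP-only cells, Igfbp3, Igfbp6 and Pappa2 lower and Igfbp7 higher.

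The median log2 fold change of the 10 genes was -0.71 for double-positive versus RFP-only cells, against -0.010 over all genes. It was 1.36 for double-positive versus GFP-only cells, against 0.041 over all genes, and 2.18 for RFP-only versus GFP-only cells, against 0.046. The 3 libraries of each population did not overlap for 8 of the 10 genes between double-positive and RFP-only cells, where 23.8% of all genes did not overlap. Between double-positive and GFP-only cells 5 did not overlap, against 28.1% of all genes, and between RFP-only and GFP-only cells 8 did not, against 39.4%. Igf1, Igfbp2 and Pappa were the 3 genes called lower in GFP-only cells than in both other populations, a pattern met by 4.22% of all genes. None of the 10 met the other patterns of this kind, in which double-positive cells were above both others (0.236% of all genes) or below both (0.0619%), GFP-only cells were above both (2.44%), or RFP-only cells were above (0.889%) or below both (1.49%).

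**Figure D1:**
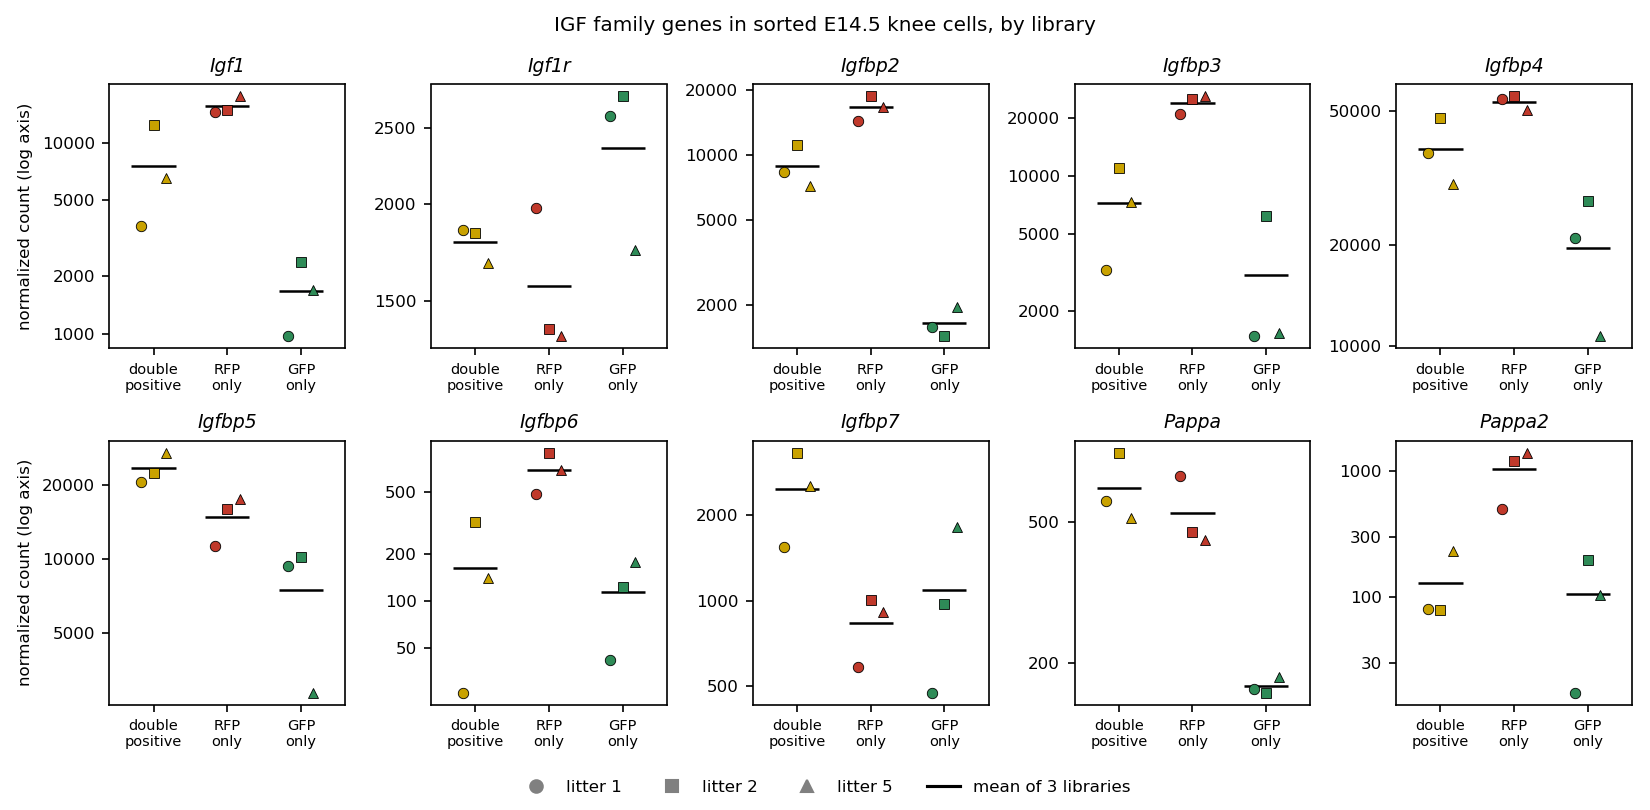
Normalized counts of the 10 IGF genes on log axes, 1 panel per gene and 1 point per library, with the litter shown by the point's shape and the mean of 3 libraries by a bar. Igf1, Igfbp2, Igfbp4, Igfbp5 and Pappa sit lowest in all GFP-only libraries, and Igfbp5 and Igfbp7 have their highest mean in double-positive cells. Igf1, Igfbp2, Igfbp3, Igfbp4, Igfbp6 and Pappa2 are highest in all RFP-only libraries.

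The ligand gene Igf1 (ENSMUSG00000020053, chr10:87858265-87937042, plus strand, GRCm38) had 3679, 12501 and 6587 normalized counts in double-positive libraries of litters 1, 2 and 5, against 14540.0, 14906 and 17549 in RFP-only libraries and 969.6, 2373 and 1699 in GFP-only libraries. All RFP-only libraries were above all double-positive ones, and all double-positive ones were above all GFP-only ones, with litter 2 the highest of the double-positive set. Igf1 was higher in double-positive relative to GFP-only cells by 2.09 ± 0.42 (adjusted p = 0.0119) and in RFP-only relative to GFP-only cells by 3.31 ± 0.42 (adjusted p = 0.000328). Against RFP-only cells the double-positive difference was -1.22 ± 0.42 (95% interval -2.13 to -0.30), which did not pass (adjusted p = 0.179). Because these are bulk samples, fewer cells that make a transcript and less transcript per cell cannot be told apart, here and for the genes below.

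Summed markers of loose connective tissue (8 genes) were 14758.5, 19365 and 13888 in double-positive libraries, against 22231, 23808 and 27133 in RFP-only libraries and 5829, 6205 and 3667 in GFP-only libraries. Their order over the populations was that of Igf1, and their part in its difference was not tested. Of these 8 genes, 5 were called higher in double-positive relative to GFP-only cells, 8 were called higher in RFP-only relative to GFP-only cells, and 1 was called lower in double-positive relative to RFP-only cells.

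The receptor gene Igf1r (ENSMUSG00000005533, chr7:67952827-68233668, plus strand) had the smallest ratio of highest to lowest library among the 10 genes. It had 1848, 1833 and 1680.1 normalized counts in double-positive libraries, against 1976, 1382 and 1352 in RFP-only libraries and 2588, 2742 and 1743 in GFP-only libraries. The ranges of the 3 populations overlapped, and the highest libraries were the GFP-only ones of litters 1 and 2. The difference was 0.21 ± 0.24 for double-positive versus RFP-only cells (95% interval -0.32 to 0.74, adjusted p = 0.88), and -0.37 ± 0.24 for double-positive versus GFP-only cells (-0.90 to 0.16, adjusted p = 0.361, and -0.58 with litter 5 of the GFP-only set left out, adjusted p = 0.0957). Between RFP-only and GFP-only cells it was -0.58 ± 0.24 (-1.11 to -0.05, adjusted p = 0.114). When litter 5 of the GFP-only set was left out, Igf1r was called lower in RFP-only relative to GFP-only cells by -0.79 (adjusted p = 0.0174, with adjusted p of 0.0174 to 0.496 over 24 alternatives).

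Within a library, the ratio of Igf1 to Igf1r removes any scaling of that library. It leaves out the ligand gene Igf2, which averaged 83289 normalized counts in double-positive, 73745 in RFP-only and 112303 in GFP-only libraries. The ratio is not corrected for gene length, so its sign does not tell which transcript was more abundant. Per kb of exon, GFP-only libraries averaged 169.7 for Igf1 and 140.4 for Igf1r. The log2 ratio of Igf1 to Igf1r, on normalized counts, averaged 1.91 ± 0.89 in double-positive, 3.34 ± 0.42 in RFP-only and -0.55 ± 0.75 in GFP-only libraries (SD, n = 3 each). The populations did not overlap in any of the 3 pairs, each with a two-sided exact permutation p of 0.1, the smallest that 3 against 3 libraries allow. The genes of this ratio and of the ratios below were picked by hand. How often other gene pairs fail to overlap was not counted, so these ratios are descriptions.

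Among the binding proteins, Igfbp4 was the most abundant per kb of exon in each population, and its mean was 8712 ± 1971 normalized counts per kb in double-positive, 12059 ± 607 in RFP-only and 4424 ± 1873 in GFP-only libraries. In double-positive cells it was followed by Igfbp2 (4810.3 ± 1118 per kb) and Igfbp5 (3882 ± 549.9), which did not differ beyond their spread, then by Igfbp3 (2302 ± 1244) and Igfbp7 (2042 ± 734), which did not either. In RFP-only cells the order was Igfbp2 (9018 ± 1156 per kb), Igfbp3 (7669 ± 870.2), then Igfbp5 (2473 ± 535). The ranges of Igfbp2 and Igfbp3 overlapped there, but Igfbp2 was above Igfbp3 within each RFP-only library. In GFP-only cells Igfbp5 (1246 ± 668), Igfbp3 (977 ± 861), Igfbp7 (900.1 ± 559) and Igfbp2 (899 ± 145) lay within each other's spread. Igf1 reached 766 ± 454 normalized counts per kb in double-positive, 1582 ± 166 in RFP-only and 169.7 ± 70.8 in GFP-only libraries, while Igf1r, Pappa and Pappa2 stayed at or below 140.4 per kb on average in each population.

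Igfbp2 and Igfbp5 lie next to each other on chromosome 1. Igfbp2 (ENSMUSG00000039323, chr1:72824503-72852474, plus strand) and Igfbp5 (ENSMUSG00000026185, chr1:72857932-72874884, minus strand) point towards each other with 5457 bases between their ends. Because these neighbours differed in their pattern, and Igfbp4 was the most abundant binding protein transcript, the sequences upstream of their starts are shown, 5′ to 3′ on the gene's strand, from RefSeq on GRCm38.p6. The stretches are chr1:72824230-72824479 for Igfbp2 (plus strand), chr1:72874885-72875115 for Igfbp5 (minus strand, ending where an annotated exon begins) and chr11:99040994-99041243 for Igfbp4 (plus strand). Capitals mark GGGCGG, the GC box letters, and TATAAA, the TATA box letters.
Igfbp2: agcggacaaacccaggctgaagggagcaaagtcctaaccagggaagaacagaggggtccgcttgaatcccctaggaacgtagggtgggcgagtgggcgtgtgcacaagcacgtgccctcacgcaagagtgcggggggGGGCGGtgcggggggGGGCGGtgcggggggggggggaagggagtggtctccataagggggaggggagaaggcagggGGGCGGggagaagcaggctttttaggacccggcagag
Igfbp5: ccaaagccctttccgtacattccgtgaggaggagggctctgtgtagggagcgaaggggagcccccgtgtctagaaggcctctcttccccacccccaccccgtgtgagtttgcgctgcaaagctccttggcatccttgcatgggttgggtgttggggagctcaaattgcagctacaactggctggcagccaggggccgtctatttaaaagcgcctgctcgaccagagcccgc
Igfbp4: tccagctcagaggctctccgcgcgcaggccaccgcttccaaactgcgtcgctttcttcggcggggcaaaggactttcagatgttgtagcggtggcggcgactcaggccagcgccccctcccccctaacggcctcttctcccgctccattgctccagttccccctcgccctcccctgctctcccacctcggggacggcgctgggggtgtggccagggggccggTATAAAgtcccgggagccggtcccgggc
The Igfbp2 stretch holds GGGCGG 3 times, with first bases at -113, -98 and -37 from the start, the Igfbp4 stretch holds TATAAA at -28, and the Igfbp5 stretch holds neither.

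A window of 250 bases before to 50 bases after the start was available for 9 of the 10 genes, all but Pappa. Both strands were searched. GGGCGG was in the windows of 3 of 9 genes (Igf1r, Igfbp2 and Igfbp7), against 35.7% of 32851 windows over all genes, and TATAAA in those of 2 (Igfbp4 and Igfbp6), against 13.6%. TGANTCA, a looser form of the AP-1 site with any base at N, was in those of 2 (Igf1 and a second start of Igfbp2), against 7.81%. The match was TGAATCA for Igf1 and TGAGTCA for the second Igfbp2 start. Only the latter has the C or G of the stricter AP-1 site, whose share over all windows was not counted. All 250 bases before the Igf1 start lay in annotated exons, as did 192 of those before the Pappa2 start. So did 65 before the second Igfbp2 start and 19 before the Igfbp5 start. For Igf1, Pappa2 and the second Igfbp2 start, all 250 bases lay within the annotated gene. TGACGTCA, the letters of the cyclic AMP response element to which CREB family factors bind, was in none of the windows, against 1.79%, and its shorter core TGACG, which it contains, was also in none, against 20.8%.

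Igfbp2, a binding protein that occurs bound to the cell surface and matrix, had 8324, 11171 and 7158 normalized counts in double-positive libraries, against 14459, 18725 and 16787 in RFP-only libraries and 1587, 1436 and 1956 in GFP-only libraries. The 3 populations did not overlap, and RFP-only cells were the highest. It was higher in double-positive relative to GFP-only cells by 2.41 ± 0.22 (adjusted p = 0.0002) and in RFP-only relative to GFP-only cells by 3.33 ± 0.22 (adjusted p = 6.36e-06), and both calls held under all 24 alternatives. Against RFP-only cells the double-positive difference was -0.92 ± 0.22 (adjusted p = 0.052), with the same sign in 3 of 3 litters. That difference was called under 10 of 24 alternatives, among them with litter 5 of the GFP-only set left out (adjusted p = 0.0163, with adjusted p of 0.00563 to 0.414 over the 24).

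Igfbp5, a binding protein of bone and cartilage matrix, had another order. It had 20575, 22391 and 26983 normalized counts in double-positive libraries, against 11248, 15874 and 17428 in RFP-only libraries and 9403, 10174 and 2868 in GFP-only libraries. Double-positive libraries were the highest, without overlap with either other population. Igfbp5 was higher in double-positive relative to GFP-only cells by 1.83 ± 0.41 (adjusted p = 0.0208), with log2 ratios of 1.13, 1.14 and 3.23 in litters 1, 2 and 5. When litter 5 of the GFP-only set was left out the difference was 1.24 (adjusted p = 0.00594), and the call was lost without any 1 of the double-positive libraries of litters 1, 2 or 5 (adjusted p = 0.0529, 0.073 and 0.0684, with adjusted p of 0.00111 to 0.0971 over 24 alternatives). The differences of 0.67 ± 0.41 between double-positive and RFP-only cells (adjusted p = 0.602) and of 1.17 ± 0.41 between RFP-only and GFP-only cells (adjusted p = 0.067) did not pass. Between RFP-only and GFP-only cells it was 0.58 with litter 5 of the GFP-only set left out (adjusted p = 0.0672, with adjusted p of 0.0271 to 0.196 over 24 alternatives).

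Summed joint interzone markers (9 of 10 listed genes in the table) were 113291, 88381 and 73649.7 in double-positive libraries, against 51201, 46699 and 69533 in RFP-only libraries and 24757, 15330.2 and 29772 in GFP-only libraries. They had the same order of populations as Igfbp5. Of the 9 genes, 3 were called higher and 0 lower in double-positive relative to RFP-only cells, 5 higher and 1 lower in double-positive relative to GFP-only cells, and 4 higher and 3 lower in RFP-only relative to GFP-only cells, and their part in the Igfbp5 difference was not tested. Within a library the log2 ratio of Igfbp5 to Igfbp2 averaged 1.41 ± 0.46 in double-positive, -0.18 ± 0.21 in RFP-only and 1.98 ± 1.24 in GFP-only libraries (SD, n = 3 each). Double-positive and RFP-only libraries did not overlap in it, nor did RFP-only and GFP-only libraries (two-sided exact permutation p = 0.1 each, the smallest this design allows). Double-positive and GFP-only libraries overlapped (exact p = 0.5), but only through litter 5 of the GFP-only set. In litters 1, 2 and 5 the log2 ratio was 1.31, 1.00 and 1.91 in double-positive and 2.57, 2.82 and 0.55 in GFP-only libraries.

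Igfbp4 (ENSMUSG00000017493, chr11:99041244-99054392, plus strand), a binding protein cut by the product of Pappa, had 37448, 47642 and 30323 normalized counts in double-positive libraries, against 54287, 55256 and 50209 in RFP-only libraries and 20886, 27049 and 10676 in GFP-only libraries. The populations did not overlap and followed the order of Igfbp2. It was higher in RFP-only relative to GFP-only cells by 1.55 ± 0.31 (adjusted p = 0.00539). The difference of 1.05 ± 0.31 between double-positive and GFP-only cells did not pass (adjusted p = 0.0618), but was called with litter as a block (adjusted p = 0.0305, with adjusted p of 0.0257 to 0.25 over 24 alternatives). It was 1.34 with litter 2 of the GFP-only set left out, which was called (adjusted p = 0.0257), and 0.67 with litter 5 of that set left out, which was not (adjusted p = 0.0635). Against RFP-only cells the double-positive difference was -0.49 ± 0.31 (adjusted p = 0.618).

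Igfbp3 (ENSMUSG00000020427, chr11:7206086-7213923, minus strand), the main IGF carrier of blood plasma, had 3252, 11035 and 7327 normalized counts in double-positive libraries, against 20881, 25239.7 and 25891 in RFP-only libraries and 1469.7, 6169 and 1536 in GFP-only libraries. RFP-only libraries were all above the rest, and double-positive and GFP-only libraries overlapped through litter 2 of the GFP-only set. Igfbp3 was higher in RFP-only relative to GFP-only cells by 3.31 ± 0.54 (adjusted p = 0.00154), a call that held under all 24 alternatives. The difference was -1.90 ± 0.54 for double-positive versus RFP-only cells (adjusted p = 0.0993) and 1.41 ± 0.54 for double-positive versus GFP-only cells (adjusted p = 0.132), each with 1 sign in 3 of 3 litters. With litter 2 of the GFP-only set left out, Igfbp3 was called higher in double-positive relative to GFP-only cells by 2.09 (adjusted p = 0.0142, with adjusted p of 0.0142 to 0.474 over 24 alternatives). With litter as a block it was called lower in double-positive relative to RFP-only cells (adjusted p = 0.0345, with adjusted p of 0.0246 to 0.503 over 24 alternatives). Its neighbour Igfbp1, 3539 bases away and best known from liver, averaged 2.99 ± 5.18 normalized counts in double-positive, 8.5 ± 2.88 in RFP-only and 0.905 ± 1.57 in GFP-only libraries, under the filter on low values.

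Igfbp6 (ENSMUSG00000023046, chr15:102144362-102149511, plus strand), which prefers IGF2 over IGF1, had the lowest mean of the 6 binding proteins per kb in each population. In RFP-only cells its range overlapped that of Igfbp7, but it was below Igfbp7 per kb within each library. It had 25.9, 323 and 142 normalized counts in double-positive libraries, against 491, 900.3 and 701 in RFP-only libraries and 42.2, 124 and 179 in GFP-only libraries. RFP-only libraries were all above the rest, while double-positive and GFP-only libraries overlapped. It was higher in RFP-only relative to GFP-only cells by 2.78 ± 0.80 (adjusted p = 0.0314), a call lost without any 1 RFP-only library or with litter 1 of the GFP-only set left out (adjusted p = 0.0615 to 0.0972). The difference between double-positive and RFP-only cells was -2.65 ± 0.80 (adjusted p = 0.122), and with litter as a block it was called (adjusted p = 0.0311, with adjusted p of 0.0311 to 0.347 over 24 alternatives). Double-positive and GFP-only cells differed by 0.12 ± 0.80 (95% interval -1.63 to 1.88, adjusted p = 0.943), and by 0.55 with litter 5 of the GFP-only set left out (adjusted p = 0.771).

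Igfbp7 (ENSMUSG00000036256, chr5:77349240-77408041, minus strand), a matrix and vessel protein of low IGF affinity, had 1549.7, 3322 and 2536 normalized counts in double-positive libraries, against 586, 1009 and 917 in RFP-only libraries and 476, 974.5 and 1814 in GFP-only libraries. Double-positive libraries were all above RFP-only ones, and the GFP-only library of litter 5 was above 1 double-positive library. The differences of 1.53 ± 0.45 for double-positive versus RFP-only cells (adjusted p = 0.114) and 1.32 ± 0.45 for double-positive versus GFP-only cells (adjusted p = 0.0982) did not pass, with 1 sign in 3 of 3 litters each. When litter 5 of the GFP-only set was left out, Igfbp7 was called higher in double-positive cells against RFP-only cells (adjusted p = 0.0351) and against GFP-only cells (adjusted p = 0.0231). With litter as a block it was likewise called against RFP-only cells (adjusted p = 0.031) and against GFP-only cells (adjusted p = 0.0286). Over 24 alternatives its adjusted p was 0.0114 to 0.478 against RFP-only cells and 0.0231 to 0.373 against GFP-only cells.

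RFP-only and GFP-only cells differed in Igfbp7 by -0.21 ± 0.45 (adjusted p = 0.771), and by 0.26 with litter 5 of the GFP-only set left out. Igfbp7 shares 85 of its 1209 exon bases with Polr2b on the opposite strand, so its reads are uncertain to that extent, as the sources used here do not say whether strand was counted. Summed endothelial markers (10 genes) were 1443, 5720.0 and 3489 in double-positive libraries, against 5235, 6566 and 6136 in RFP-only libraries and 1099, 2053 and 2182 in GFP-only libraries. The list's sum was lower in double-positive relative to RFP-only libraries in 3 of 3 litters, with 0 of the 10 called, and higher in double-positive relative to GFP-only libraries in 3 of 3 litters, with 2 of the 10 called higher. Between RFP-only and GFP-only cells 6 of the 10 were called higher, and the part of these markers in the Igfbp7 differences was not tested.

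**Figure D2:**
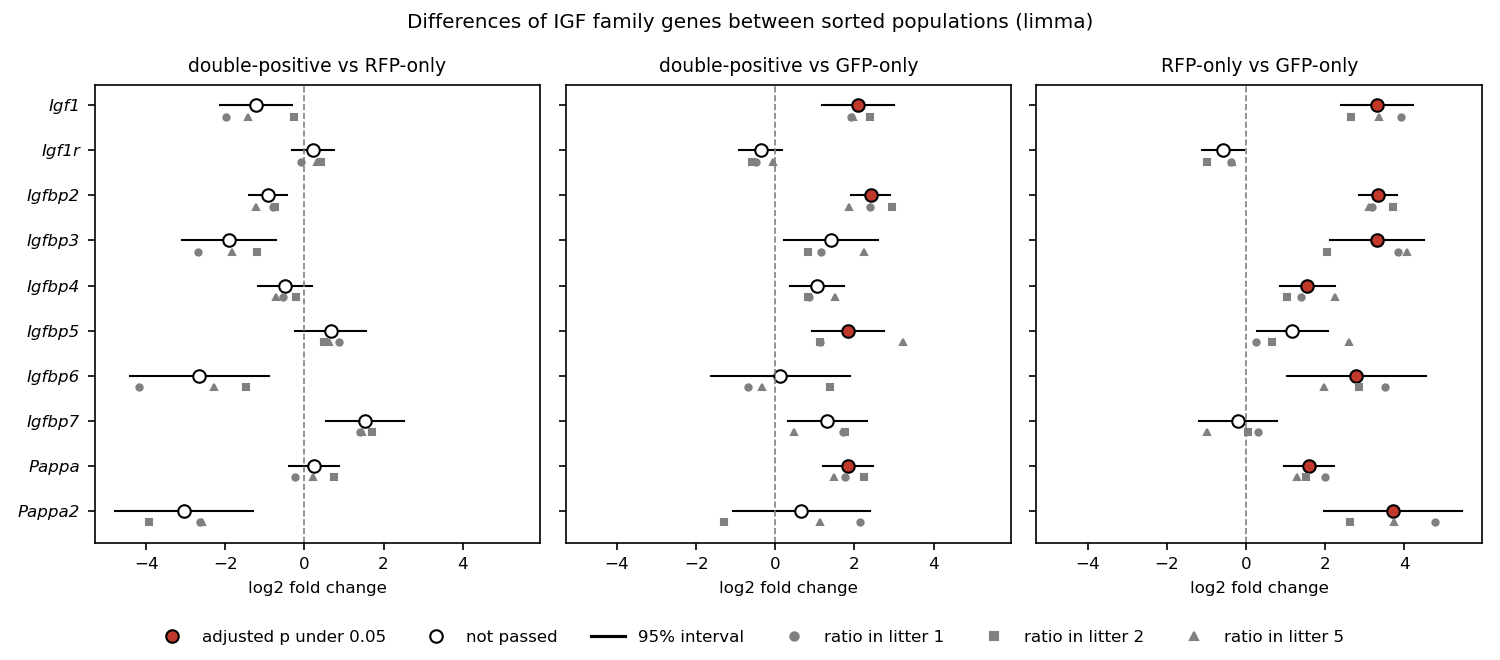
Log2 fold changes of the 10 IGF genes in the 3 comparisons, with 95% intervals from limma as lines, filled circles where the adjusted p was under 0.05, and small grey symbols for the ratio in each litter. The panel of double-positive versus RFP-only cells has 0 filled circles, that of double-positive versus GFP-only cells has 4 and that of RFP-only versus GFP-only cells has 7.

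Added up per kb of exon, the 6 binding protein genes gave 21895 ± 4562 normalized counts per kb in double-positive, 32538 ± 2737 in RFP-only and 8549 ± 2723 in GFP-only libraries (SD, n = 3 each). The 3 populations did not overlap, with ranges of 18757 to 27128 in double-positive, 29592 to 35002 in RFP-only and 6107 to 11485 in GFP-only libraries. Their makeup differed as well. Igfbp4 held 39.9 ± 5.27% of the sum in double-positive, 37.2 ± 3.78% in RFP-only and 50.5 ± 9.86% in GFP-only libraries. Its ranges overlapped between all populations, at 34.7 to 45.2%, 34.4 to 41.5% and 39.6 to 58.7% in that order. The overlap of the GFP-only set came through litter 5 (39.6%, against 58.7 and 53.3% in litters 1 and 2).

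The share of Igfbp5 was 18.2 ± 4.47% in double-positive, 7.56 ± 1.23% in RFP-only and 14.001 ± 5.84% in GFP-only libraries. In the GFP-only libraries of litters 1, 2 and 5 it was 19.4, 14.7 and 7.82%. Igfbp7 held 9.19 ± 2.05% in double-positive, 2.11 ± 0.41% in RFP-only and 12.2 ± 10.8% in GFP-only libraries. Its GFP-only shares were 4.89, 7.02 and 24.6% in litters 1, 2 and 5, so that mean rests on litter 5. Igfbp3 held 10.1 ± 4.01% in double-positive, 23.5 ± 1.33% in RFP-only and 10.3 ± 6.01% in GFP-only libraries. Igfbp2 held 22.0 ± 2.25% in double-positive, 27.6 ± 1.26% in RFP-only and 11.6 ± 5.35% in GFP-only libraries. For Igfbp6 the shares were 0.61 ± 0.47%, 1.90 ± 0.41% and 1.36 ± 1.13% in the same order. The RFP-only set of binding proteins was thus richer in Igfbp2, Igfbp3 and Igfbp6, and the double-positive set richer in Igfbp5 and Igfbp7, without overlap between their libraries. The log2 ratio of Igfbp3 to Igfbp5 was -1.85 ± 0.82 in double-positive, 0.71 ± 0.16 in RFP-only and -1.43 ± 1.08 in GFP-only libraries, with an exact permutation p of 0.1 for double-positive against RFP-only and for RFP-only versus GFP-only libraries and of 0.6 for double-positive versus GFP-only libraries.

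**Figure D3:**
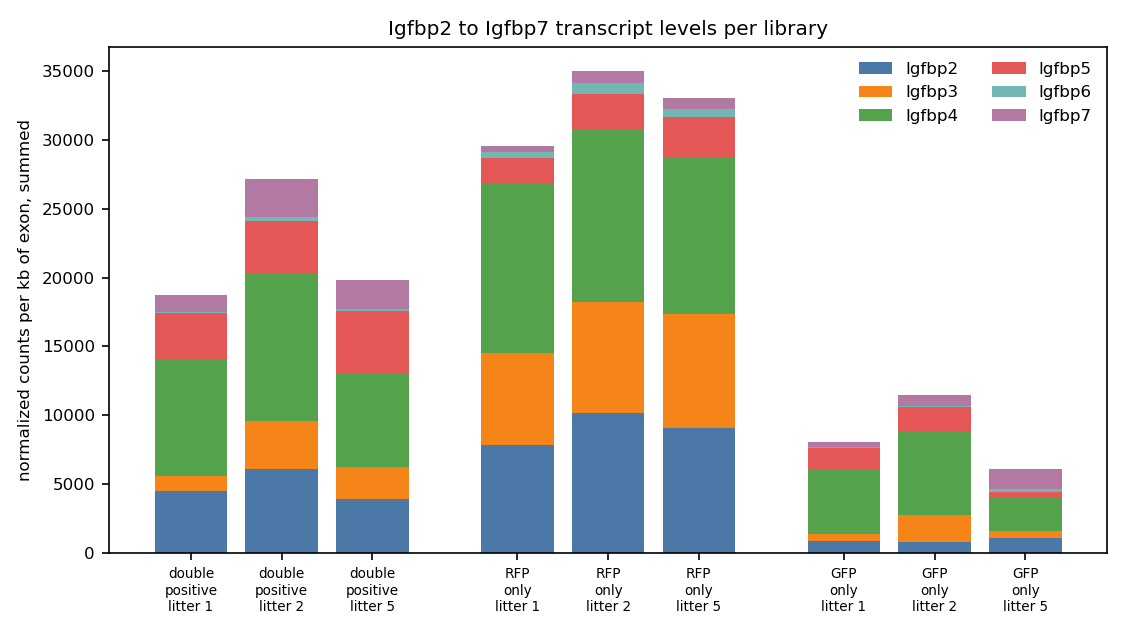
Normalized counts per kb of exon of Igfbp2 to Igfbp7 stacked for each of the 9 libraries. The total is highest in the 3 RFP-only libraries and lowest in the 3 GFP-only ones, and the Igfbp5 and Igfbp7 blocks are larger in double-positive than in RFP-only libraries.

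Pappa (ENSMUSG00000028370, chr4:65124174-65357509, plus strand), whose product cuts IGFBP4 in the presence of IGF, had 576, 787 and 516 normalized counts in double-positive libraries, against 676, 470.0 and 447 in RFP-only libraries and 169, 165 and 183 in GFP-only libraries. Both Creb5-reporter populations lay above all GFP-only libraries and overlapped each other. Pappa was higher in double-positive relative to GFP-only cells by 1.83 ± 0.29 (adjusted p = 0.00373) and in RFP-only relative to GFP-only cells by 1.59 ± 0.29 (adjusted p = 0.00285). Double-positive and RFP-only cells differed by 0.24 ± 0.29 (95% interval -0.39 to 0.87, adjusted p = 0.889).

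Pappa2 (ENSMUSG00000073530, chr1:158711727-158980490, minus strand), whose product cuts IGFBP3 and IGFBP5, had 79.7, 78.7 and 232 normalized counts in double-positive libraries, against 498, 1208 and 1408 in RFP-only libraries and 17.4, 196 and 104 in GFP-only libraries. RFP-only libraries were all above the rest, and double-positive and GFP-only libraries overlapped. Pappa2 was higher in RFP-only relative to GFP-only cells by 3.71 ± 0.79 (adjusted p = 0.00723). The difference of -3.05 ± 0.79 between double-positive and RFP-only cells did not pass (adjusted p = 0.0707), and was called with litter as a block (adjusted p = 0.025, with adjusted p of 0.000761 to 0.347 over 24 alternatives). Double-positive and GFP-only cells differed by 0.66 ± 0.79 (95% interval -1.08 to 2.40, adjusted p = 0.64).

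The pappalysin genes had different orders over the populations. The log2 ratio of Pappa2 to Pappa within a library was -2.43 ± 1.13 in double-positive, 0.86 ± 1.13 in RFP-only and -1.26 ± 1.77 in GFP-only libraries, with no overlap between double-positive and RFP-only libraries (exact permutation p = 0.1). Double-positive and GFP-only libraries overlapped in it (exact p = 0.4), as did RFP-only and GFP-only libraries (exact p = 0.2). Beside Pappa2, the skeletal muscle sum was 1097, 2991 and 3399 in double-positive libraries, against 9072, 33523 and 28392 in RFP-only libraries and 872, 1279 and 2278 in GFP-only libraries. Of the 12 muscle genes, 7 were called lower in double-positive relative to RFP-only cells and 10 higher in RFP-only relative to GFP-only cells, 1 of them was at 0 in each GFP-only library, and their part in the Pappa2 differences was not tested.

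**Figure D4:**
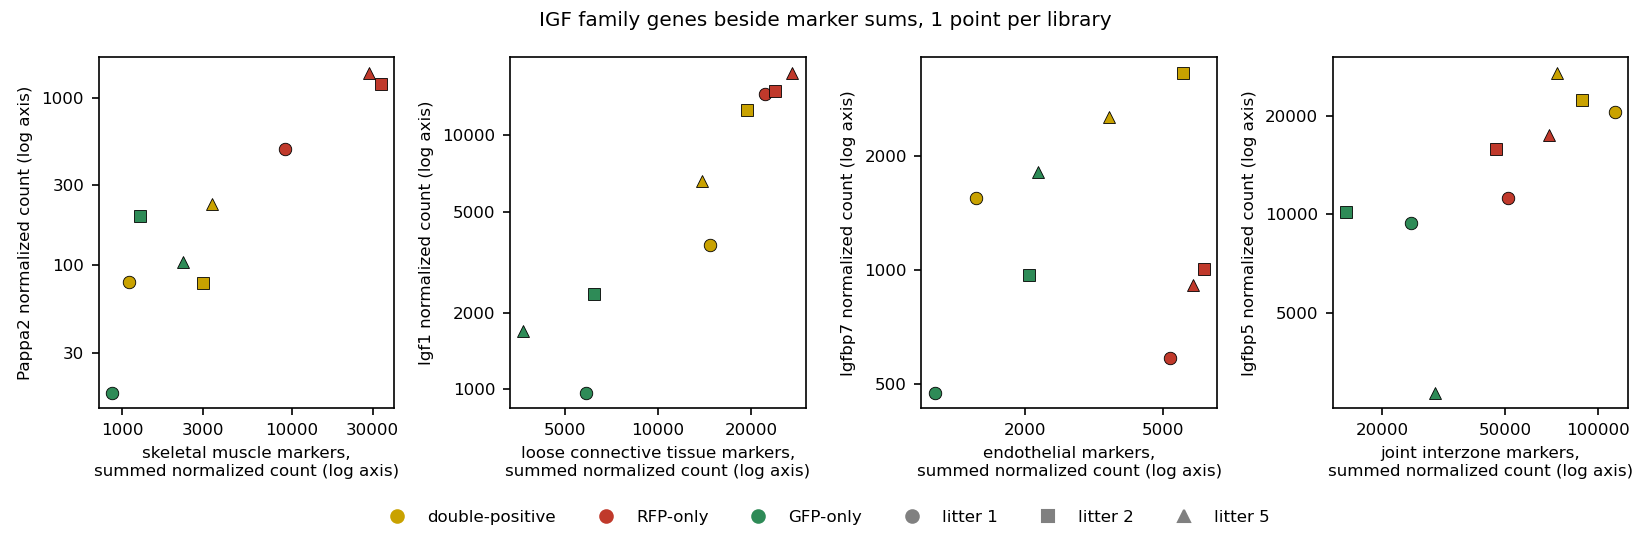
Normalized counts of Pappa2, Igf1, Igfbp7 and Igfbp5 against the summed normalized counts of skeletal muscle, loose connective tissue, endothelial and joint interzone markers, on log axes with 1 point per library. The 3 RFP-only libraries lie at the top right of the Pappa2 and Igf1 panels, whereas in the Igfbp7 panel they lie low at high endothelial sums.

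Other genes of the pathway, 43 in all of which 40 passed the filter, were called in both directions. Between double-positive and RFP-only cells 1 was higher and 0 lower with a median of -0.12, between double-positive and GFP-only cells 4 were higher and 3 lower with a median of -0.029, and between RFP-only and GFP-only cells 4 were higher and 6 lower with a median of -0.032. Over all tested genes 1.8% were called higher and 1.05% lower in the first of these comparisons. The shares were 5.27% and 3.02% in the second, and 11.8% and 8.48% in the third. These pathway counts are not read as a result about the pathway. The lower counts against GFP-only cells include Igfals, which passed the filter on low values through its GFP-only libraries alone. Among ligands and receptors, Igf2, the fetal IGF ligand, averaged 83289 ± 11515 normalized counts in double-positive, 73745 ± 11393 in RFP-only and 112303 ± 35872 in GFP-only libraries, and passed in no comparison. Igf2 was chosen for mention after its values were seen. Its difference was 0.18 ± 0.25 for double-positive versus RFP-only cells (adjusted p = 0.921), -0.39 ± 0.25 for double-positive versus GFP-only cells (adjusted p = 0.361) and -0.57 ± 0.25 between RFP-only and GFP-only cells (adjusted p = 0.138). With litter 5 of the GFP-only set left out the differences from GFP-only cells were -0.15 in double-positive cells (adjusted p = 0.685) and -0.33 in RFP-only cells (adjusted p = 0.249). Ghr, the growth hormone receptor, averaged 3956 ± 231 in double-positive, 4248 ± 728 in RFP-only and 2253 ± 282 normalized counts in GFP-only libraries, and was higher than in GFP-only cells by 0.82 ± 0.20 in double-positive cells (adjusted p = 0.0296) and by 0.91 ± 0.20 in RFP-only cells (adjusted p = 0.00828). The double-positive call was lost without any 1 double-positive library, litter 1 of the RFP-only set, or litter 1 or 2 of the GFP-only set (adjusted p = 0.0524 to 0.105).

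Genes that act on binding proteins or on pappalysins were among those called. Stc1, a stanniocalcin that inhibits pappalysins, had 1255, 1711 and 2084 normalized counts in double-positive libraries, against 1287, 1633 and 2061 in RFP-only libraries and 235, 323 and 417 in GFP-only libraries. Like Pappa, it lay above all GFP-only libraries in both Creb5-reporter populations, by 2.38 ± 0.30 in double-positive cells (adjusted p = 0.00131) and 2.36 ± 0.30 in RFP-only cells (adjusted p = 0.000338). Htra1, a secreted protease that cuts binding proteins and matrix, had 10477, 12296 and 8229 normalized counts in double-positive libraries, against 4393, 7674 and 8029 in RFP-only libraries and 1273, 2298 and 3275 in GFP-only libraries. It was higher than in GFP-only cells by 2.26 ± 0.35 in double-positive cells (adjusted p = 0.0034) and by 1.61 ± 0.35 in RFP-only cells (adjusted p = 0.00773).

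Kazald1, a secreted protein with an IGFBP domain, had 1706, 1711 and 2600.5 normalized counts in double-positive libraries, against 56.4, 123 and 171 in RFP-only libraries and 1737, 2648 and 5583 in GFP-only libraries. It was lowest in all RFP-only libraries. The difference was 4.199 ± 0.47 for double-positive versus RFP-only cells (adjusted p = 0.000768) and -4.79 ± 0.47 between RFP-only and GFP-only cells (adjusted p = 6.74e-05). Igfals, the acid-labile subunit that joins IGF and IGFBP3 in plasma, had 0 reads in the 3 double-positive libraries, 3 reads in RFP-only libraries and 84 reads in GFP-only libraries. With 3 reads over the group taken as the floor it was at least 37.1-fold lower in double-positive relative to GFP-only cells, and the ratio of GFP-only to RFP-only levels was 29.5 (95% counting interval 9.75 to 146). With litter 2 of the GFP-only set left out, which held 52 of the 84 reads, the bound was 20.1-fold and the ratio 15.9 (4.99 to 81.4), an alternative chosen after seeing the data. The interval and the floor cover counting error only, not the spread between litters. Igfals passed the filter only through the population where it is high. Its calls are part of the counts of lower genes above, but they are not read as a result. Crim1, a transmembrane protein with an IGFBP-like motif, was lower than in GFP-only cells by -1.22 ± 0.31 in double-positive cells (adjusted p = 0.0361) and -1.35 ± 0.31 in RFP-only cells (adjusted p = 0.0111). The double-positive call of Crim1 was lost with any 1 of 7 libraries left out (adjusted p = 0.0516 to 0.131), all but litter 5 of the double-positive and RFP-only sets, and its RFP-only call with litter 1 of the RFP-only set left out (adjusted p = 0.054).

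Downstream of the receptor, Grb14, an adaptor that restrains insulin receptor signalling, averaged 388 ± 41.4 normalized counts in double-positive, 405 ± 48.9 in RFP-only and 1068 ± 311 in GFP-only libraries. It was lower than in GFP-only cells by -1.42 ± 0.28 in double-positive cells (adjusted p = 0.0115) and by -1.36 ± 0.28 in RFP-only cells (adjusted p = 0.00596). Pik3r3, a regulatory subunit of PI3 kinase, was higher than in GFP-only cells by 1.60 ± 0.43 in double-positive cells (adjusted p = 0.0422) and by 2.10 ± 0.43 in RFP-only cells (adjusted p = 0.0055), and its double-positive call was lost without any 1 double-positive library or litter 5 of either other set (adjusted p = 0.0637 to 0.137). Foxo1, a transcription factor that the pathway restrains, was lower in RFP-only relative to GFP-only cells by -0.97 ± 0.25 (adjusted p = 0.0185), a call lost without any 1 RFP-only library or the GFP-only library of litter 1 (adjusted p = 0.054 to 0.0634). Foxo4, a factor of the same family, averaged 76.9 ± 19.0 normalized counts in double-positive, 63.7 ± 14.3 in RFP-only and 161 ± 51.4 in GFP-only libraries. It was lower in RFP-only relative to GFP-only cells by -1.30 ± 0.42 (adjusted p = 0.0497), a call lost without any 1 of the 9 libraries (adjusted p = 0.0573 to 0.175, and 0.0127 to 0.238 over 24 alternatives).

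**Figure D5:**
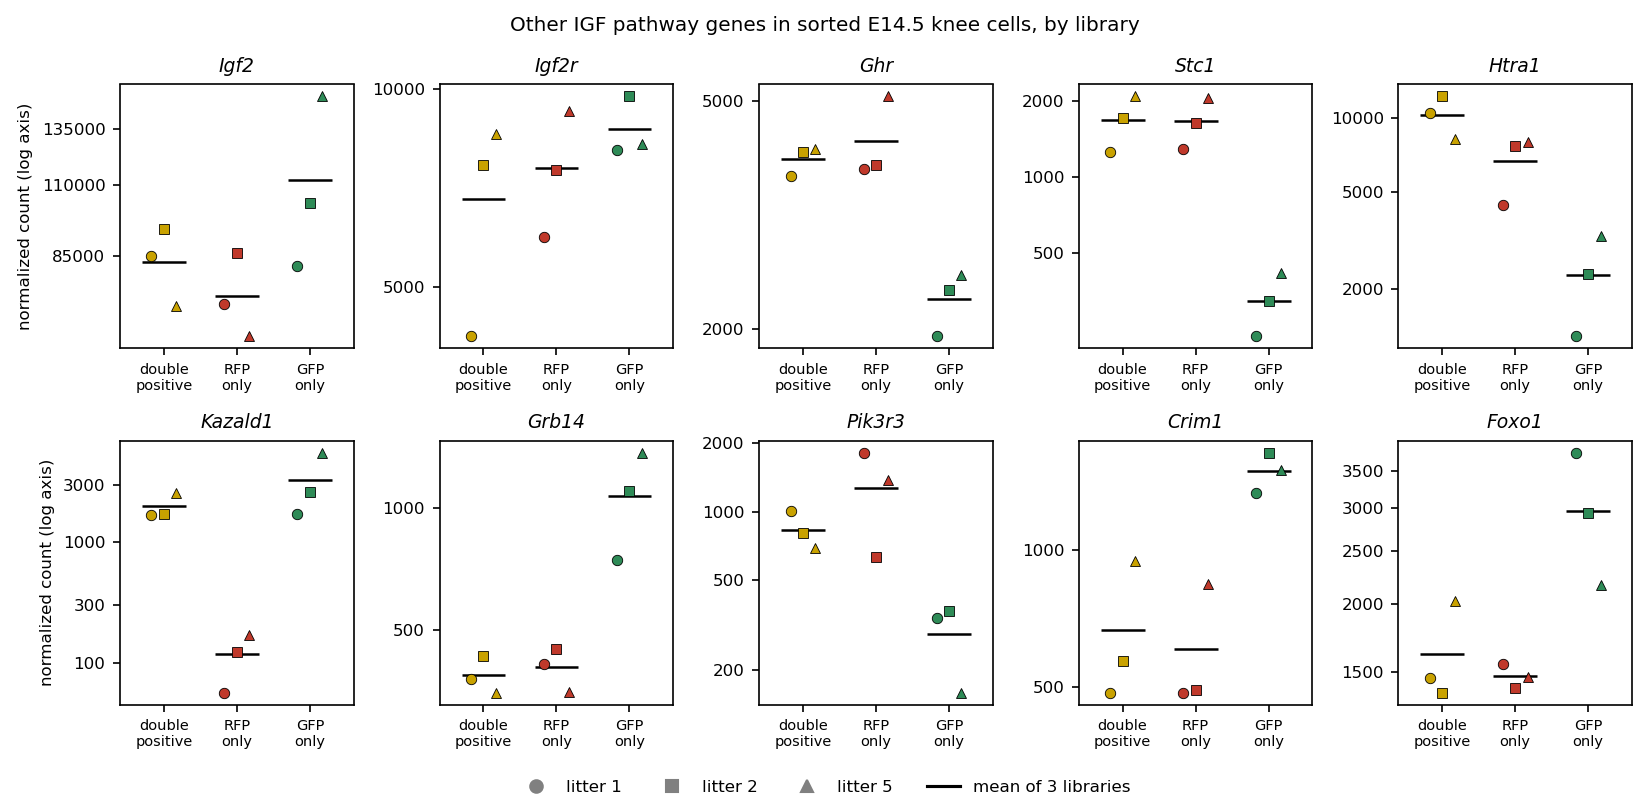
Normalized counts of 10 other IGF pathway genes on log axes, 1 point per library and a bar for the mean of 3 libraries. Stc1, Htra1, Ghr and Pik3r3 are lowest in all GFP-only libraries, Grb14, Crim1 and Foxo1 are highest in them, Kazald1 is lowest in all RFP-only libraries, and the Igf2 and Igf2r ranges of the populations overlap.

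Each IGF gene was set beside the genes with the most similar profile, by Pearson r of log2(normalized count + 1) over the 9 libraries, among 11869 genes with a mean of at least 100. These are descriptions over libraries that share populations and litters. The highest r was 0.991 for Igf1 with Tmeff2, followed by Plat and Agtr2, and 0.953 for Igf1r with Aldh9a1, followed by Maml2 and Apba2. For the binding proteins it was 0.994 for Igfbp2 with Bend5, then Nexn and Gbp6, 0.993 for Igfbp3 with Adgre5, then Lrrc32 and Cspg5, and 0.995 for Igfbp4 with Ptgfr, then Kcp and Mmp11. Igfbp5 was most like Cyfip2 at 0.984, then Ext1 and Adgrg2, Igfbp6 most like Serpinb1a at 0.985, then Slc7a10 and Itgb3, and Igfbp7 most like Cdkn2c at 0.935, then Rnf167 and Mxd3. Pappa was most like Phactr1 at 0.978, then Stard5 and Rbm4b, and Pappa2 most like Myf5, a muscle precursor factor, at 0.977, then Tmem106c and Prox1. Myf5 averaged 41.0 normalized counts in double-positive, 721 in RFP-only and 22.6 in GFP-only libraries. Like Myf5, Prox1, Slc7a10, Itgb3 and Gbp6 averaged at least 100 in RFP-only libraries alone. The r values include the differences between population means. With those means removed, r for the most similar genes ran from 0.653 (Pappa with Phactr1) to 0.988 (Igfbp3 with Adgre5). Among all genes named, it was lowest for Igfbp2 with Gbp6 (0.426) and Pappa with Rbm4b (0.510).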

How the data were processed

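Bulk RNA from 9 libraries, 3 sorted populations in each of 3 litters, was analysed. The authors deposited 1 table of normalized signal per gene, reads divided by a size factor per library. Per the submitters' processing notes FastQC, STAR, Salmon and DESeq2 were used with mm10, and their roles, versions and strand settings are not given in the sources used here. Dividing each library by its step gave whole reads for 100% of values within 0.001, with 25199258 to 47079305 reads per library, and edgeR 4.0.16 and DESeq2 1.42.0 were run on these recovered counts as alternatives. At this depth the spread between litters, not counting error, limits the precision.

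The 10 genes and the pathway and marker lists were chosen with earlier results of these data known. Identifiers were named from GENCODE M21 (54495 of 54532 matched). The main test was limma 3.58.1 in R 4.3.3, with trend, on log2(normalized count + 1), for genes averaging 10 or more, with all 9 libraries in the fit, with Benjamini-Hochberg adjustment over 17764 genes and no litter term. Within-library ratios were compared by exact permutation for Igf1 to Igf1r, Igfbp5 to Igfbp2, Igfbp3 to Igfbp5 and Pappa2 to Pappa. These gene pairs were picked by hand and were not among the planned tests. Levels per kb divide by the union of annotated exons. Pathway genes are named where they passed in at least 1 comparison, at most 3 per list and comparison by smallest adjusted p. A gene of the pathway list is not reported here.

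The labels give each library's litter and isolation date, so litters pair the libraries. Deviations from the population means correlated with a median r of 0.103 over 9 same-litter pairs (-0.035 to 0.149), against -0.041 over 18 pairs of different litters (-0.146 to 0.092). No pair of replicates agreed within sampling noise. The 24 alternatives were 12 other settings, 9 fits without 1 library and 3 without 1 litter.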

Additional observations from a re-analysis of the deposited data

How the results depend on the processing

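The litters allow a paired analysis. With litter as fixed replicate block, 4 IGF genes and 558 genes in all were called for double-positive versus RFP-only cells (0 and 506 without it), 6 and 1616 for double-positive versus GFP-only cells (4 and 1472), and 7 and 3673 for RFP-only versus GFP-only cells (7 and 3601). Beyond the calls given above it added none for these 10 genes. For double-positive versus RFP-only cells, other settings called 1 of the 10 (TMM scaling, a filter at a mean of 50, litter as random replicate block), 2 (pseudocount 5, quantile normalization), 4 (only the 2 populations compared) or 5 (array weights, DESeq2), and all genes called were 1008 with only those 2 populations, 1545 with array weights and 1156 by DESeq2. For double-positive versus GFP-only cells all genes called were 697 with only those 2 populations and 2769 by DESeq2. With 1 library left out, the genes called for double-positive versus RFP-only cells were 1050 without litter 5 of the GFP-only set, 217 and 223 without litters 1 and 5 of the double-positive set and 277, 226 and 236 without litters 1, 2 and 5 of the RFP-only set. For double-positive versus GFP-only cells they were 855 and 637 without litters 1 and 2 of the double-positive set, and for RFP-only versus GFP-only cells 2258 and 2190 without litters 1 and 5 of the RFP-only set. Leaving out 1 library or 1 litter gave 0 to 2 of the 10 and 112 to 1050 genes for double-positive versus RFP-only cells, 1 to 6 and 229 to 1553 for double-positive versus GFP-only cells, and 5 to 8 and 1598 to 3716 for RFP-only versus GFP-only cells.

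Of 720 single values for the 10 genes under 24 alternatives, 709 kept their sign. The other 11 were differences that had not passed. For double-positive versus RFP-only cells Pappa gave -0.0125 without litter 2 (up to 0.48 without 1 library or litter). For double-positive versus GFP-only cells Igfbp6 gave -0.18 with quantile normalization, -0.67 and -0.083 with litter 2 or 5 of the double-positive set left out, -0.48 with litter 1 of the GFP-only set left out and -0.51 without litter 2 (up to 1.12), and Pappa2 gave -0.33 with litter 1 of the GFP-only set left out and -0.081 without litter 1 (up to 1.64). For RFP-only versus GFP-only cells Igfbp7 gave 0.027 with litter 1 of the RFP-only set left out, 0.26 with litter 5 of the GFP-only set left out and 0.17 without litter 5 (down to -0.70). The cause was not tested.

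The calls of Igf1, Igfbp2 and Pappa for double-positive versus GFP-only cells, and those of Igf1, Igfbp2, Igfbp3, Igfbp4, Pappa and Pappa2 for RFP-only versus GFP-only cells, held without any 1 library, as did those of Stc1, Htra1, Grb14 and Kazald1. Calls of Ghr, Crim1 and Pik3r3 for double-positive versus GFP-only cells, and of Crim1, Foxo1 and Foxo4 for RFP-only versus GFP-only cells were each lost without at least 1 library. With a whole litter left out, and so 6 libraries in the fit, calls for double-positive versus GFP-only cells were lost for Igf1 without litter 2 or 5 (adjusted p = 0.0661 and 0.0727) and for Pappa (0.0687 and 0.0954) and Igfbp5 (0.0809 and 0.0971) without litter 1 or 2. For RFP-only versus GFP-only cells they were lost for Igfbp4 (0.0659) and Pappa (0.0815) without litter 1, Igfbp6 without litter 2 or 5 (0.101 each) and Pappa2 without litter 5 (0.0532). With 3 litters, differences of low or scattered genes such as Igfbp6 and Pappa2 are known only within wide intervals.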
